A study of Mus musculus with 4 samples.

Results

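Granulocyte-monocyte progenitors with high levels of the neutrophil protease transcripts Elane, Prtn3 and Ctsg were examined in mouse bone marrow. Members were selected on the share of these 3 transcripts: in each library, a cell barcode was taken where Elane, Prtn3 and Ctsg together reached 0.5% of its unique molecular identifiers (UMIs, 1 per captured transcript). Barcodes also needed 1000 detected genes or more, and no more than 10% of UMIs from mitochondrial genes. The secondary granule genes Camp, Ngp and Ltf had to stay below 1%. The rule found 1219 members among 22916 barcodes that passed the gene and mitochondrial limits. Because measured transcripts chose the members, the levels of these genes in them are given as a description.

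The cells were donor-derived (CD45.2+), lineage negative, Sca1+ and Kit+ (LSK), sorted from marrow 10 weeks after transplantation and profiled with 10x Genomics 3' single-cell RNA sequencing and 6 barcoded antibodies (CITE-seq). Each of the 4 genotypes was profiled once: a control, deletion of Mll3, deletion of Mll4, and deletion of both. Mll3 and Mll4 are the histone H3 lysine 4 methyltransferases encoded by Kmt2c and Kmt2d. The labels name neither the Cre driver nor the number of donors behind a library, so whether a library pooled animals is not given in the sources used here. With a single library of each genotype the spread between animals is unknown, and no p-value was computed. All intervals are at the 95% level and cover counting error only. Values are given in the order control, Mll3-labelled and Mll4-labelled library unless stated otherwise, and the 1 member of the Mll3/4-labelled library is described at the end.

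Granulocyte-monocyte progenitors are the marrow cells that give rise to neutrophils and monocytes. At the promyelocyte step of this path, cells fill their primary (azurophil) granules with myeloperoxidase and with the serine proteases neutrophil elastase, proteinase 3 and cathepsin G. The transcription factors Cebpa and Spi1 (PU.1) set up the granule programme, Irf8 and Klf4 favour monocytes, and Gfi1 and Cebpe favour neutrophils. Classical progenitors of this kind carry Kit and CD34 but little Sca1, the antigen that the LSK sort requires.

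The kept barcodes held between 50792614 and 120700343 UMIs per library, with medians per barcode of 14454, 15381 and 21400 UMIs, and of 8920 where both genes were deleted. Members were deeper, with medians of 27547, 26561 and 44118 UMIs, and 51982 in the 1 member with both deleted. Kmt2c, the gene of Mll3, was counted at 40.3, 19.7 and 42.2 counts per 1000000 UMIs (CPM) in the members, and Kmt2d, the gene of Mll4, at 20.2, 17.5 and 17.5 CPM. Kmt2d was therefore not lower in the Mll4-labelled members than in the Mll3-labelled ones. A 3' count does not check a deletion that lies upstream of the counted end, and libraries are named here by their labels. Pairs of libraries shared 7 to 14 kept barcodes and no member barcode.

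The promoters of the 5 defining genes and of Tspan32 and Cd81, neighbouring genes of chromosome 7 that were among the lowest in Mll4-labelled members, are printed to show the regulatory sequence next to the counted transcripts. Each runs from 250 bases before to 50 bases after the start site in RefSeq on GRCm38.p6, 5' to 3' on the gene's strand. Capitals mark matches on either strand to TTGCNNAA (the C/EBP family), AGGAAGT (PU.1), TGTGGT (RUNX) or AACNGNC (MYB). No match in these windows overlapped another.
Mpo, chr11:87793534-87793833, plus strand: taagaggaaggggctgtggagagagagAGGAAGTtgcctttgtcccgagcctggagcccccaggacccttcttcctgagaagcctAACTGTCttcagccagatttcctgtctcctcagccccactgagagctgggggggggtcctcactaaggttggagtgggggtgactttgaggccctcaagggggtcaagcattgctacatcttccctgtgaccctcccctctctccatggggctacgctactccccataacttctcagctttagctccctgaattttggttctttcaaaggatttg
Elane, chr10:79886062-79886361, plus strand: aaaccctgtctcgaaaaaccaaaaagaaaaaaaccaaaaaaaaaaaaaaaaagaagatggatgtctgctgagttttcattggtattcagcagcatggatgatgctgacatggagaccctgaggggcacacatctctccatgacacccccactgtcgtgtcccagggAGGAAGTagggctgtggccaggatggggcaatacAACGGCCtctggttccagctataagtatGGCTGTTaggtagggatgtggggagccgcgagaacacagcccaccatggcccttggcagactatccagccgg
Prtn3, chr10:79879417-79879716, plus strand: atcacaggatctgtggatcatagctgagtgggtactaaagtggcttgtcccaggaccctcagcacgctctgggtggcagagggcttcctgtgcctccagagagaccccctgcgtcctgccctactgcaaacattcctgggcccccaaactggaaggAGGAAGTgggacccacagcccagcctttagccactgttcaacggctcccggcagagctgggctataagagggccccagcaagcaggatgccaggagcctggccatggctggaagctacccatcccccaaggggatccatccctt
Ctsg, chr14:56102525-56102824, minus strand: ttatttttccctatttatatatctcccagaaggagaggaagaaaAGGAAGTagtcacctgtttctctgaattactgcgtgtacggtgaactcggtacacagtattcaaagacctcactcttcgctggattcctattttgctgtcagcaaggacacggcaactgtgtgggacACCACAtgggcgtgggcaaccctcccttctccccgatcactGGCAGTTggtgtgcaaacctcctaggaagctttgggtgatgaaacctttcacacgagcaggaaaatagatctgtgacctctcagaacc
Ms4a3, chr19:11640802-11641101, minus strand: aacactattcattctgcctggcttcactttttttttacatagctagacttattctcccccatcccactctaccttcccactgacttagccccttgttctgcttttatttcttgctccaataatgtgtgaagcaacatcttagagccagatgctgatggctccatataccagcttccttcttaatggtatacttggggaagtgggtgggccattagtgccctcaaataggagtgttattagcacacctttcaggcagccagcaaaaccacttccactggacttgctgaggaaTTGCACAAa
Tspan32, chr7:143004796-143005095, plus strand: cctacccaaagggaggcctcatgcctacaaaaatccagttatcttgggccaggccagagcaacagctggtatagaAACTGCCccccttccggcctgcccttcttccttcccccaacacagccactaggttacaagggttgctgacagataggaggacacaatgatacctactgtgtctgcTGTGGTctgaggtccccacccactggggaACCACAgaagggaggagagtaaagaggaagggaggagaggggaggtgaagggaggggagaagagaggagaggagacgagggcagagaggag
Cd81, chr7:143052500-143052799, plus strand: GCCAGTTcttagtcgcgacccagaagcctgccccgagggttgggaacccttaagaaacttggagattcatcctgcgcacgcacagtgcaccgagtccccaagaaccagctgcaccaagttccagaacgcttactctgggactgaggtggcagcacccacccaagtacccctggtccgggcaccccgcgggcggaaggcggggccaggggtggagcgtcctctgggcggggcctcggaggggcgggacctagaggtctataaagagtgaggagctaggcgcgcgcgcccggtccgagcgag
The PU.1 letters stood in the Mpo, Elane, Prtn3 and Ctsg windows, 223, 84, 94 and 206 bases before the start. They were not in those of Ms4a3, Tspan32 and Cd81. Ms4a3 held a C/EBP match 42 bases after its start, Ctsg a RUNX match 79 bases before it, and Tspan32 RUNX matches 70 and 41 bases before it. Over all 32851 windows of the table, 10.8% held the C/EBP letters, 9.35% the PU.1, 16.8% the RUNX and 32.8% the MYB letters. Among the 16 granule genes described below, 14 had a window. Of these 4 held the C/EBP letters, 7 the PU.1, 7 the RUNX and 8 the MYB letters. Of the 15 genes highest in Mll4-labelled members 12 had a window, and 1, 3, 5 and 2 held the letters in that order. Of the 15 lowest 9 had a window, and 0, 2, 3 and 4 held them. These are matches of letters, with no measurement of binding.

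Members made up 85 of 7274 barcodes of the control library (1.17%, exact binomial interval 0.934 to 1.44), 96 of 6101 of the Mll3-labelled library (1.57%, 1.28 to 1.92) and 1037 of 4793 of the Mll4-labelled library (21.6%, 20.5 to 22.8). The Mll3/4-labelled library had 1 of 4748 (0.0211%, 0.000533 to 0.117). The Mll4-labelled share lay far above the other 3 and the Mll3/4-labelled share below them, with no overlap of the counting intervals between these and the control and Mll3-labelled shares. Measured as transcripts, the members held 2.08%, 2.59%, 38.6% and 0.102% of their library's UMIs in the same order of 4. A higher share of a library can come from more of these cells or from fewer of the others, and shares of a sorted gate cannot tell these apart.

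**Figure D1:**
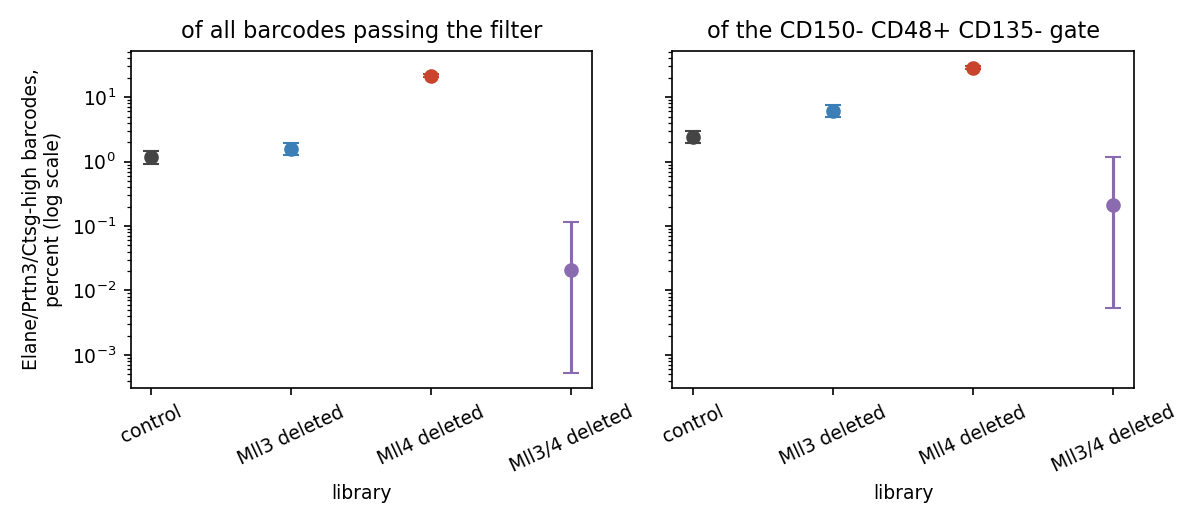
Share of barcodes that met the rule in each library, as percent on a log scale, of all barcodes passing the filter (left) and of those in the CD150- CD48+ CD135- gate (right). Points are single libraries and bars exact 95% binomial intervals for counting error. The Mll4-labelled library stands at 21.6% and 28.8%, above the other libraries in both panels.

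The threshold cut through a thin zone in the control and Mll3-labelled libraries. Just outside it, at 0.4 to 0.5% of UMIs, lay 11, 9 and 89 barcodes, and just inside, at 0.5 to 0.6%, lay 4, 5 and 66. The Mll4-labelled barcodes just outside were shallow, with a median of 5694 UMIs against 25229 for those just inside. The limit on secondary granule genes left out 2, 5 and 6 barcodes that met the protease limit.

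Granule RNA was also more common in the Mll4-labelled barcodes that failed the limits. Of the 408, 459 and 2909 barcodes that failed the gene or mitochondrial limits, 17, 16 and 1312 were over the protease limit. The failing Mll4-labelled barcodes had a median of 0.459% from the 3 proteases. The failing barcodes had median depths of 1958, 2377 and 672 UMIs, and 358, 396 and 473 of them were over the mitochondrial limit. Among cells of the stem cell gate (CD150+ CD48- CD135-, called HSC), which should lack elastase, each thinned to 5000 UMIs, 1.46%, 0.965% and 23.1% had an Elane UMI, and the same shares for Mpo were 2.69%, 2.34% and 42.0%. Their unthinned median depths were 11735, 14651 and 24880 UMIs. Prtn3 was less selective, with a UMI in 70.2%, 81.2% and 56.1% of thinned HSC-gate cells. The members were far above this level: 97.6%, 95.8% and 96.2% of thinned members had Elane, and 100%, 100% and 99.1% had Mpo.

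Some shallow Mll4-labelled members carried genes of other cell types. In 94 of the 1037, mast cell and basophil genes exceeded 0.5% of UMIs, with a median of 4596 UMIs per barcode and 0.652% from the 3 proteases. No control or Mll3-labelled member did so. Markers of mast, macrophage, dendritic, innate lymphoid, plasma and stromal cells together (without Gata2, Flt3, Xbp1 and Nkg7) exceeded 0.2% of UMIs in 3, 2 and 213 members. Leaving these out gave a Mll4-labelled share of 17.2% (824 members), and leaving out members under 10000 UMIs gave 19.5%. Gene ratios were recomputed without each kind, and such values are given beside the genes concerned.

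The defining genes were near the top of the transcriptome in all 3 libraries. Mpo, which makes hypochlorous acid from hydrogen peroxide, was counted at 4716, 5784 and 9110 CPM. Elane (neutrophil elastase) stood at 5666, 6179 and 4979 CPM, Prtn3 (proteinase 3) at 5882, 7448 and 5413, and Ctsg (cathepsin G) at 4467, 5462 and 4272. Levels of the 3 proteases, which the rule used, were close across libraries, while Mpo, which it did not use, was highest in the Mll4-labelled members. Ms4a3, a membrane protein of this progenitor stage, was counted at 859, 852 and 928 CPM. In the remaining barcodes Elane was at 6.62, 11.7 and 118 CPM and Mpo at 77.2, 47.7 and 424, far below the members.

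The log2 ratio of Mpo in Mll4-labelled members was 0.95 to the control (0.92 to 0.98) and 0.66 to the Mll3-labelled members. This was just under the 2-fold limit that was used to call a difference, which also asked for a mean of at least 20 CPM, and it was 1.06 with TMM scaling. Over all 5506 genes at that level, 4.3% were higher and 2.67% lower by at least 2-fold in Mll4-labelled than in control members, with a median log2 ratio of -0.09. Against Mll3-labelled members, 5.95% of 5648 genes were higher and 5.72% lower, with a median of -0.22. Rescaling by TMM moved these medians by 0.11 and 0.25 and the shares of calls that were higher from 61.7% to 74.4% and from 51.0% to 79.7%. Both comparisons share the Mll4-labelled library, so their values are set side by side and not counted as independent.

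Of the 16 granule genes, all at the level tested, none was at least 2-fold higher and 1 was lower in Mll4-labelled than in control members, with a list median of -0.14. That gene was Nkg7, a granule membrane protein best known from cytotoxic lymphocytes, at 532, 419 and 124 CPM (log2 -2.10, -2.19 to -2.02, to the control). Its level in the Mll4-labelled members was well below both other libraries. The protease activator Ctsc was at 45.5, 56.2 and 80.0 CPM, a ratio of 0.81 to the control that was 1.24 with equal weight per member. Other granule components were within 2-fold: the proteoglycan Srgn at 1751, 1793 and 1431, the protease inhibitor Serpinb1a at 462, 393 and 427, and the cystatin Cst7 at 170, 174 and 91.3. Lyz2 (lysozyme) was at 264, 498 and 271 CPM, highest in the Mll3-labelled members. In the summed counts Nkg7 and Mpo were thus the granule genes furthest from the control in either direction.

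Members spread along the protease score. In the lowest band, 0.5 to 1% of UMIs, were 29, 23 and 327 members. The middle band, 1 to 3%, held 47, 58 and 680, and 9, 15 and 30 had 3% or more. The top band was thus 10.6%, 15.6% and 2.89% of the members. From the lowest to the top band Elane went from 1361 to 19091 CPM in the control and from 1378 to 14446 in the Mll4-labelled members. Mpo varied less along the score: it went from 3585 to 5344 CPM in the control, while in the Mll4-labelled members it was already at 8049 in the lowest band and at 9816 in the top one. Nkg7 followed the score, from 271 to 1187 CPM in the control and from 68.7 to 483 in the Mll4-labelled members.

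Of 20 transcription factors of this lineage, 14 were at the level tested, none higher and 2 lower in Mll4-labelled than in control members, with a median of 0.00. Cebpa, the factor required to form these progenitors, was counted at 84.6, 87.9 and 73.4 CPM, and Spi1 at 241, 254 and 201. For Cebpa the counting interval of the Mll4-labelled members overlapped that of the control but not that of the Mll3-labelled members. The monocyte factor Irf8 was at 174, 266 and 173 CPM and the neutrophil factor Gfi1 at 39.1, 41.6 and 55.9.

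The 2 lower factors were both of the C/EBP family. Cebpb, used in emergency granulopoiesis, was at 137, 194 and 57.9 CPM (log2 -1.24, -1.40 to -1.07, to the control and -1.75 to Mll3). Cebpe, needed for the secondary granule stage, was at 124, 74.4 and 55.2 (-1.17, -1.34 to -0.99, and -0.44). Cebpb was lower in Mll4-labelled members than in both others, whereas the Cebpe level of the Mll3-labelled members lay between. By band, the Cebpe ratio to the control was -0.16 in the lowest, -1.43 in the middle and -1.30 in the top one, so the gap was seen in the middle and top bands.

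Among 16 growth factor and chemokine receptor genes, 10 were tested, 2 higher and 1 lower in Mll4-labelled than in control members, with a median of 0.68. Csf2rb, the shared beta chain of the receptors for GM-CSF, interleukin 3 and interleukin 5, was at 33.0, 22.6 and 74.6 CPM (log2 1.17, 0.86 to 1.51). Ccr2, the chemokine receptor that draws monocytes from marrow, was at 25, 33.6 and 82.6 (1.71, 1.36 to 2.11). Both were highest in the Mll4-labelled members with no overlap of counting intervals. Csf3r, the receptor for G-CSF that drives neutrophil output, was lower at 47.6, 37.9 and 21.5 CPM (-1.15, -1.42 to -0.86). The M-CSF receptor Csf1r stood at 25, 24.4 and 37.5 CPM and Kit at 116, 98.9 and 203, both within 2-fold of the control. With equal weight per member the Kit ratio was 1.97 to the control in place of 0.80, and 2.21 to Mll3 in place of 1.03. Without members carrying other cell types' markers it was 0.52 and 0.74.

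**Figure D2:**
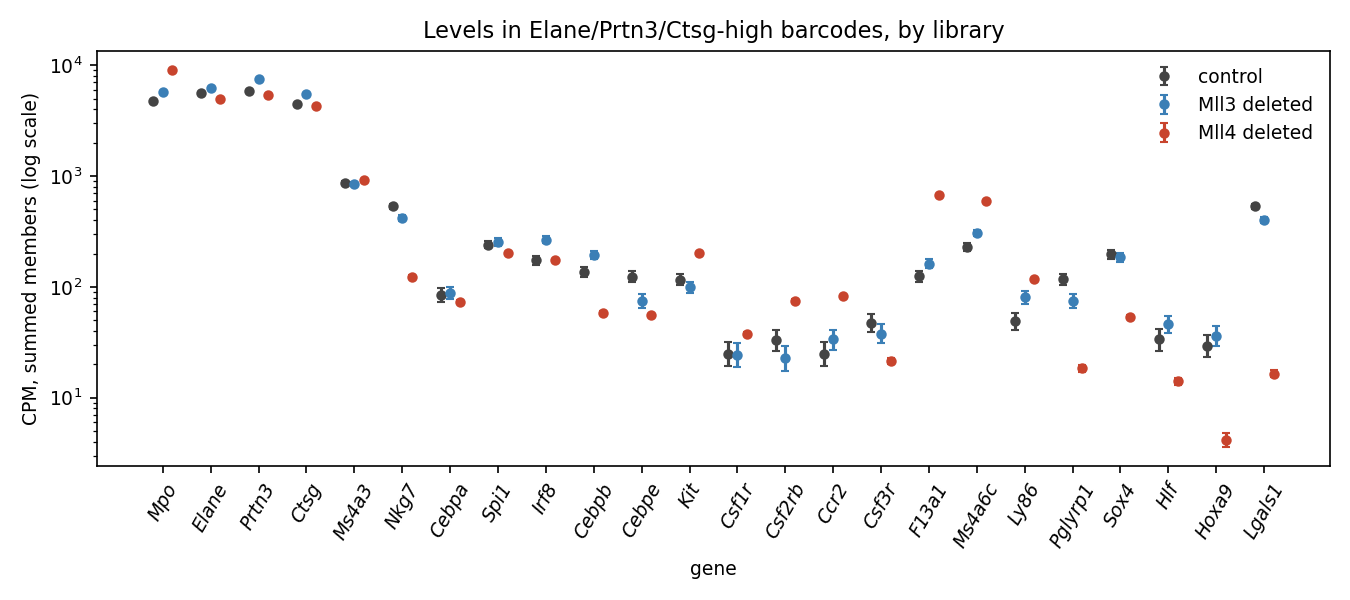
Level of 24 genes in the summed members of each library, in CPM on a log scale. Points are single libraries and bars exact 95% Poisson intervals. The protease genes sit close together across libraries, while Nkg7, Cebpb, Cebpe, Csf3r, Pglyrp1, Sox4, Hoxa9 and Lgals1 are lowest, and Csf2rb, Ccr2, F13a1, Ms4a6c and Ly86 highest, in the Mll4-labelled members.

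In the monocyte branch 4 of 13 genes tested were at least 2-fold higher and 1 lower in Mll4-labelled than in control members, with a median of 0.73 to the control and 0.38 to Mll3. The same 13 genes had a higher median to the control outside the members, at 3.37, and in non-members of the CD150- CD48+ CD135- gate, at 3.78. F13a1, the coagulation factor XIII subunit made by monocytes, was at 125, 162 and 679 CPM (log2 2.45, 2.29 to 2.61, and 2.07). Thinned to 5000 UMIs, 29.8%, 37.5% and 82.7% of members had an F13a1 UMI, against 0.176%, 0.0371% and 5.07% of HSC-gate cells. Unthinned, 48.2%, 53.1% and 90.7% of members had one. F13a1 was thus found in most Mll4-labelled members and in fewer of the other libraries' members. Its ratio to the control was also high outside the members, at 5.31, from levels of 1.58 CPM in the control and 63.1 CPM in the Mll4-labelled barcodes.

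Ms4a6c, a membrane protein of monocytes, was at 231, 305 and 591 CPM (1.35, 1.24 to 1.48), and Ly86, the partner of a Toll-like receptor homologue, at 49.2, 80.6 and 118 (log2 1.26). Ccr2, given above, was the fourth. For these 2 genes the Mll3-labelled value lay between the control and the Mll4-labelled one. Ly6c2, the antigen of classical monocytes, was at 616, 1116 and 726 CPM, and Klf4 at 7.66, 12.0 and 8.17. Fcer1g, the signalling chain of Fc receptors, was lower at 224, 225 and 108 CPM (-1.05), but its ratio was 0.01 when each member had equal weight. It was -1.53 without the members that carried other cell types' markers.

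Genes of the neutrophil branch differed both ways: 10 were tested, 1 higher and 3 lower in Mll4-labelled than in control members, with a median of -0.53. Pglyrp1, a bactericidal protein of neutrophil granules, was at 117, 74.4 and 18.5 CPM (log2 -2.67, -2.86 to -2.47). S100a9, a subunit of calprotectin, was at 643, 222 and 288 CPM (-1.16), but -0.19 with the protease bands weighted as in the control. Fcnb, a lectin of promyelocyte granules that missed the level tested, was at 25.8, 20.4 and 6.50 CPM. Of the genes at the level tested, Pglyrp1 was the 1 that stood below both other libraries by at least 2-fold.

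The higher gene was Ngp, which the rule limits, at 13.3, 7.66 and 36.2 CPM. Without the members that carried other cell types' markers its ratio to the control was -1.23 in place of 1.42, and the list median was -1.38. S100a8, the partner of S100a9, was at 468, 124 and 448 CPM in members and had a UMI in 3.10%, 1.08% and 27.0% of thinned HSC-gate cells, against 10.7%, 5.21% and 27.9% of thinned members. Along the protease score S100a8 went from 2.56 CPM in the lowest to 438 and 2256 in the middle and top bands of the control, and from 55.6 to 335 and 7023 in the Mll4-labelled members. Its ratio to the control was -0.06, but 0.97 with the bands weighted as in the control, and its ratio to Mll3 was 1.85 and 3.28.

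The genes at the low end of the Mll4-labelled to control ratio were led by Tspan32 and Lgals1. They were named as the 15 lowest with at least 50 CPM in either library and a 2-fold difference to the Mll3-labelled members in the same direction. Tspan32 (chromosome 7, 143005046 to 143019644, plus strand, GENCODE M21 on GRCm38), a tetraspanin of blood cells, was at 94.7, 15 and 2.51 CPM (log2 -5.24, -5.57 to -4.91). Lgals1 (chromosome 15, 78926725 to 78930465, plus strand), the secreted lectin galectin 1, was at 535, 400 and 16.4 CPM (-5.03, -5.16 to -4.90, to the control and -4.61 to Mll3). Lgals1 was therefore a well expressed gene of control and Mll3-labelled members and nearly missing from Mll4-labelled ones, whereas Tspan32 was already lower in the Mll3-labelled members.

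A Lgals1 UMI was found in 72.6%, 72.9% and 4.77% of members thinned to 5000 UMIs and in 92.9%, 97.9% and 17.9% of unthinned members. HSC-gate cells thinned alike had one in 19.5%, 13.7% and 9.30%, so the Mll4-labelled members were at or below the stem cell level. The ratio to the control was -4.65, -5.35 and -3.60 in the low, middle and top protease bands. Outside the members Lgals1 was at 82.1, 74.6 and 68.1 CPM, a log2 ratio of -0.27, and in non-members of the CD150- CD48+ CD135- gate the ratio was -0.22. The barcodes outside the members differ in makeup between libraries, with 606 of the Mll4-labelled ones over 0.5% mast cell genes against 2 in the control.

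Several other low genes encode surface or signalling proteins. Cd81 (chromosome 7, 143052739 to 143067934, plus strand), a tetraspanin, was at 114, 102 and 11.6 CPM (-3.30, -3.51 to -3.09). Its neighbour Tspan32 ends upstream of it on the same strand, and the 2 promoters are printed above. Cd9, a further tetraspanin, was at 54.0, 48.2 and 8.32 CPM, and Cd24a, a glycoprotein of immature blood cells, at 98.3, 59.5 and 19.2. Ptprcap, which binds the phosphatase CD45, was at 123, 128 and 14.1 CPM. Unlike Tspan32, these genes stood at similar levels in control and Mll3-labelled members, apart from Cd24a. Outside the members the Mll4-labelled to control ratio was -2.80 for Tspan32, -1.05 for Cd81, -0.82 for Cd9, 0.27 for Cd24a and -1.30 for Ptprcap. Apart from Cd24a, these genes were thus lower there too, by less than in members.

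Trem3, a receptor of myeloid cells, was at 116, 119 and 13.9 CPM (-3.07, -3.27 to -2.86), and the chemokine Ccl9 at 127, 127 and 18 (-2.83, -3.01 to -2.63). Outside the members both ran the other way, with ratios of 2.35 and 1.89. Mgst2, a glutathione transferase of leukotriene synthesis, was at 54.8, 35.0 and 4.03 CPM, and Tnfsf13 (APRIL, a survival factor for plasma cells) at 78.2, 104 and 9.65. S100a10, the partner of annexin A2, was at 193, 119 and 26.8 CPM, and the interferon-induced Ifitm1 at 144, 59.1 and 22.1. In control members most of these genes were found in many cells: 44.0% of thinned control members had Trem3 and 47.6% had Cd81, against 5.70% and 4.46% of Mll4-labelled ones.

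Apoe, a lipid carrier of macrophages and stem cells, was at 157, 127 and 20.3 CPM (-2.96), but its ratio was -0.84 with equal weight per member and -3.58 over members of at least 10000 UMIs. Equal weight also gave -5.92 for Tspan32 and -3.49 for Ifitm1, and weighting the protease bands as in the control gave -3.11 for Mgst2 in place of -3.77. Removing the highest doublet scores gave -6.01 for Tspan32, -3.90 for Cd81 and -3.51 for Ifitm1. Tpm3-rs7 was at 99.1, 272 and 3.99 CPM and had a ratio of -4.57 outside the members too. It is a copy related to tropomyosin 3, so reads could be split between the copies and its level is uncertain. Pglyrp1, described with the neutrophil genes, completed the 15.

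At the high end, with the rule mirrored, stood genes of several kinds. Itga1, the collagen-binding integrin alpha 1, was at 9.27, 28.8 and 346 CPM (log2 5.19, 4.64 to 5.88, to the control and 3.58 to Mll3). Gpr141, an orphan receptor of myeloid cells, was at 7.25, 5.47 and 132 CPM (4.14, 3.52 to 4.94), and Tmem178, a membrane protein, at 2.02, 2.92 and 102 (5.52, 4.44 to 7.29). An Itga1 UMI was found in 1.19%, 9.38% and 66.4% of thinned members, against 1.41% of Mll4-labelled HSC-gate cells. For Gpr141 the shares were 1.19%, 4.17% and 45.3%, against 0.845%, and its ratio was 3.31 with equal weight per member. For Tmem178 they were 0%, 1.04% and 33.6%, against 0%. Unthinned, 15.3%, 29.2% and 86.1% of members had Itga1, 16.5%, 10.4% and 90.8% had Gpr141, and 3.53%, 5.21% and 72.8% had Tmem178. These genes were thus found in a larger part of the Mll4-labelled members than of the other libraries' members, thinned or not. Their ratios outside the members were also high, at 4.94, 5.93 and 8.19 for Itga1, Gpr141 and Tmem178. For Tmem178 the level there was 0.00856 CPM in the control, near the floor, and 3.75 CPM in the Mll4-labelled barcodes.

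Slpi, a secreted inhibitor of elastase and cathepsin G, was at 229, 250 and 1319 CPM (2.53, 2.41 to 2.65, to the control and 2.40 to Mll3). Thinned members had it in 58.3%, 37.5% and 89.0%, against 0.293%, 0.631% and 7.32% of HSC-gate cells. Slpi had the highest level of these 15 genes, while the proteases that it inhibits were within 2-fold of the control. Ms4a4c, a monocyte relative of Ms4a3, was at 4.84, 13.5 and 54.8 CPM, the lectin receptor gene Klrb1f at 14.9, 23.0 and 83.1, and the small nucleolar RNA host gene Snhg9 at 6.05, 4.01 and 82.7. Dennd5b was at 18.1, 19.7 and 109 CPM, Fnbp1l at 10.9, 11.7 and 58.5, and the histone gene Hist1h4d at 100, 74.1 and 543. For these 3 the share of thinned Mll4-labelled members with a UMI was at or below that of HSC-gate cells: 27.9% and 28.7% for Dennd5b, 23.4% and 33.2% for Fnbp1l, and 67.4% and 68.5% for Hist1h4d. For Klrb1f the shares were 30.2% and 0.563%, for Ms4a4c 19.1% and 0.563%, and for Snhg9 34.2% and 23.9%. Fnbp1l had a ratio of -0.11 outside the members, the 1 gene of the 15 highest below 0 there.

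Cma1, Tpsb2 and Mcpt4 are proteases of mast cell granules and headed the list. They had no UMI in control or Mll3-labelled members and stood at 188, 64.0 and 54.6 CPM in Mll4-labelled ones, at least 156-fold, 52.9-fold and 45.2-fold higher than 3 UMIs in the control members would give. Without members over 0.2% other-type markers these bounds were 11.2-fold, 3.14-fold and 6.82-fold, and over members of at least 10000 UMIs 47.4-fold, 13.2-fold and 20.9-fold. Cma1 was at 571 CPM in the lowest protease band and at 57.9 and 10.1 in the middle and top bands. In Mll4-labelled cells thinned to 5000 UMIs it was found in 11.4% of members and 8.73% of the HSC gate. That thinning left out 72 of the 1037 members as too shallow (the 94 rich in mast cell genes had a median of 4596), and unthinned the shares were 48.6% and 38.0%. These 3 genes were highest in the band that held the shallow members rich in mast cell genes. Cd74, the invariant chain of class II antigen presentation, was at 8.87, 9.85 and 84.1 CPM, a ratio of 3.21 that was 1.57 without members carrying other cell types' markers and 2.61 with the highest doublet scores removed. Cma1, Tpsb2, Mcpt4 and Cd74 are themselves among those markers, so leaving out the members that carried them lowers their values by construction. With those members left out, the ratios were -5.12 for Lgals1, 5.15 for Itga1, 2.54 for Slpi and 2.47 for F13a1, close to those over all members.

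**Figure D3:**
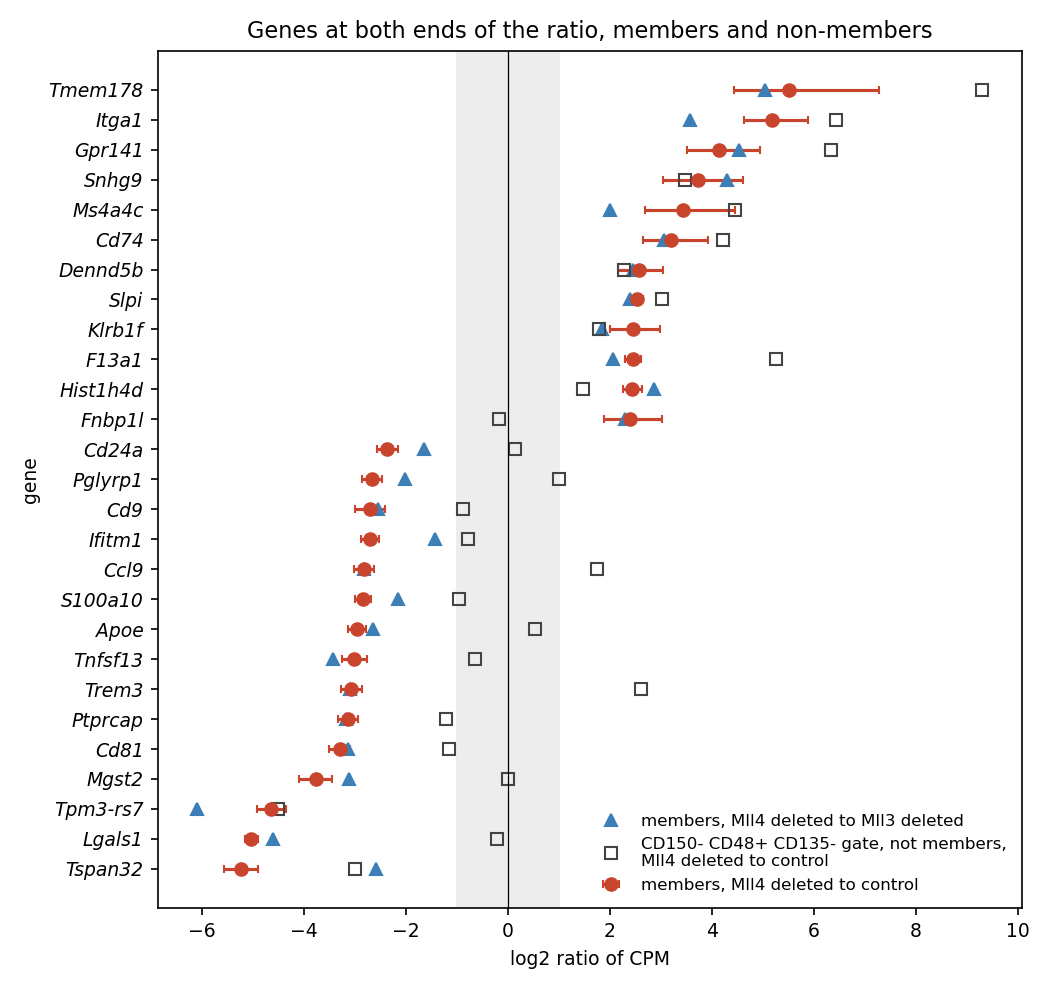
Log2 ratio for 27 of the 30 genes at both ends of the Mll4-labelled to control ratio in members (circles, with exact 95% counting intervals), beside the ratio to Mll3-labelled members (triangles) and the ratio to control in non-members of the CD150- CD48+ CD135- gate (squares). The 3 mast cell proteases without UMIs in the control are left out, the grey band marks less than 2-fold, and Trem3 and Ccl9 lie left of 0 in members and right of it in non-members.

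Genes of stem and multipotent cells were mostly below the level tested. Against the control 5 of 16 were tested, none higher and 2 lower, with a median of -0.32. Against Mll3 7 were tested, none higher and 4 lower, with a median of -1.72. Sox4, a factor of immature progenitors, was at 196, 185 and 53.7 CPM (log2 -1.87, -2.01 to -1.73), and the stem cell factor Hlf at 33.5, 46.3 and 14.1 (-1.25, -1.58 to -0.90, and -2.18 with the highest doublet scores removed). Hlf had a UMI in 14.3%, 11.5% and 4.35% of thinned members, against 71.2%, 69.1% and 78.3% of HSC-gate cells. Members of all 3 libraries thus had Hlf far less often than the HSC gate, and Mll4-labelled members least often.

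The Hoxa genes and their partner Meis1 run a self-renewal programme that is shut as myeloid cells mature. Hoxa9, Hoxa7 and Meis1 did not reach a mean of 20 CPM against the control. Against Mll3 they did, and each was lower, with log2 ratios of -3.11 for Hoxa9, -3.43 for Hoxa7 and -1.81 for Meis1. Hoxa9 (chromosome 6, 52223100 to 52231089, minus strand) was at 29.4, 36.1 and 4.18 CPM and Hoxa7, its neighbour, at 29.0, 37.2 and 3.45. Meis1 was at 28.2, 39.0 and 11.1 CPM. A Hoxa9 UMI was found in 19.0%, 17.7% and 1.55% of thinned members and in 30.4%, 29.1% and 27.9% of HSC-gate cells. Among members Hoxa9 was thus rarest in the Mll4-labelled library, while the HSC gates of the 3 libraries had it at similar shares. In the low, middle and top protease bands the Hoxa9 ratio to the control was -2.65, -2.98 and -2.49. The top value rests on few counts, at 13.1 CPM of 228275 UMIs in the control and 2.33 CPM of 1286690 in the Mll4-labelled members. Flt3, a receptor of lymphoid-primed progenitors, was at 14.1, 15 and 4.2 CPM.

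Growth and cell cycle genes were mostly within 2-fold. All 16 genes of S phase were tested, and none was higher and none lower than the control by 2-fold, with a median of -0.31. The furthest were the uracil glycosylase Ung at 60.9, 69.3 and 30.6 CPM, at the edge of 2-fold and past it in several alternatives, and the nucleotide hydrolase Dut at 512, 597 and 261, with a ratio of -0.97 that was -1.03 with the protease threshold at 1%. Against Mll3, 3 of the 16 were lower, with a median of -0.70. For the 16 genes of G2M phase no gene passed 2-fold in either comparison, and the medians were 0.28 and 0.37. Top2a was at 389, 388 and 629 CPM and Mki67 at 289, 298 and 435. After thinning, 71.4%, 75% and 80.4% of members had at least 2 G2M UMIs, with a mean of 8.30, 8.22 and 10.7. The S phase list thus had a median below 0 and the G2M list one above 0, both less than 2-fold.

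Secretory and biosynthetic genes were mostly within 2-fold. None of the 16 endoplasmic reticulum folding genes passed 2-fold to the control (median -0.01), with the calcium-binding chaperone Calr at 1863, 1996 and 2890 CPM and Xbp1, the factor that expands this organelle, at 76.6, 69.7 and 139. Of 15 ribosome biogenesis genes tested, 1 was higher, the helicase Ddx21 at 123, 112 and 294 CPM (1.25, 1.09 to 1.42), and none was lower (median -0.15). Npm1, the most abundant of them, was at 3078, 3113 and 1776 CPM.

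Metabolic genes differed in single steps. Hk2, the hexokinase that starts glycolysis, was at 28.2, 23.0 and 95.1 CPM (1.74, 1.41 to 2.11), while Pfkl, a phosphofructokinase, was at 76.6, 87.2 and 35.7 (-1.10, -1.32 to -0.88, and -0.99 after TMM scaling). These were the 2 of 10 tested glycolysis genes past 2-fold to the control, with a median of -0.27. In the NADPH oxidase and reactive oxygen list 12 were tested, none higher and 1 lower, with a median of -0.34. That gene was Ncf4, a cytosolic subunit of the oxidase, at 89.9, 118 and 31.1 CPM (-1.53, -1.73 to -1.32). The subunits Cyba at 355, 377 and 191 CPM, Ncf1 at 71.7, 66.0 and 40.0 and Rac2 at 265, 313 and 143 were also lowest in Mll4-labelled members but within 2-fold of the control (Cyba -0.89, and -1.13 with the protease threshold at 1%), and the catalytic subunit Cybb was at 44.7, 48.2 and 62.9.

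Immediate early genes respond quickly to stimulation, and to tissue handling, and several were lowest in the control members. Fos was at 20.6, 106 and 62.5 CPM, Fosb at 6.05, 52.5 and 39.4 and Jun at 110, 238 and 230. Of 6 tested, 3 were higher and 1 lower in Mll4-labelled than in control members (median 0.43), and against Mll3 none of 8 was higher and 4 were lower (median -0.90). The lower gene against the control was Ier2 at 99.1, 173 and 49.5 CPM, at the edge of 2-fold, and its ratio lay between -0.89 and -0.99 under the 3 other ways of scaling. Jun, at 1.07, was also close to the limit, and was 0.90 with the protease threshold at 1% and just under the limit without members carrying other cell types' markers. For Fos, Fosb and Jun the Mll3-labelled members had the highest level. The interferon list had 3 genes at the level tested, of which Ifitm3 was lower at 256, 189 and 85.6 CPM (-1.58, -1.70 to -1.46).

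**Figure D4:**
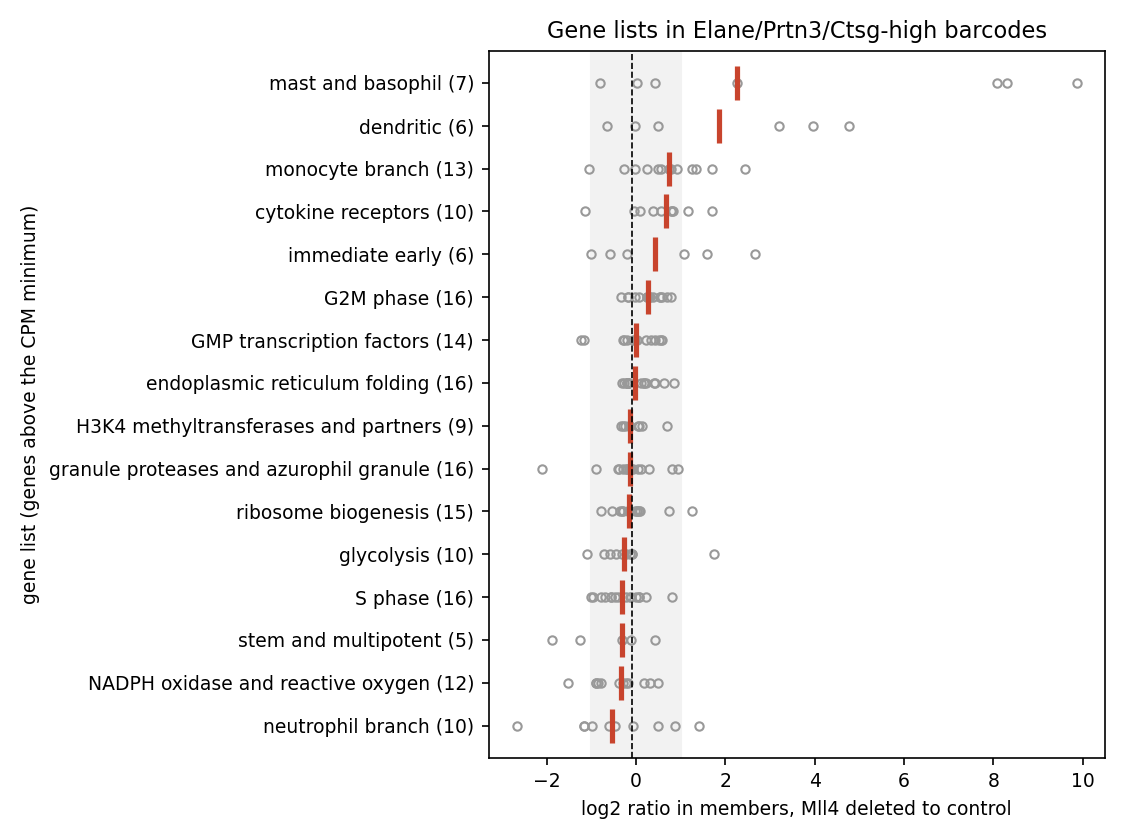
Log2 ratio of Mll4-labelled to control members for the genes (open circles) of each list with at least 5 genes above 20 mean CPM, with the list median (red bar) and, in brackets, the number of genes. The dashed line is the median of all genes at -0.09 and the grey band marks less than 2-fold. Monocyte and receptor lists have medians above 0.5, the neutrophil list lies at -0.53, and the mast and dendritic lists are spread furthest to the right.

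Markers of other cell types were sparse, and their shares of UMIs were uneven. The summed members held 2481121, 2740708 and 46647684 UMIs. Fewer genes at 0 in the Mll4-labelled sum can follow from this depth alone, here and in the next paragraph. The 12 mast and basophil genes made up 0.0269%, 0.0162% and 0.102% of member UMIs, with 6, 7 and 0 of them at 0 (median ratio to the control 2.26 over 7 tested). Cpa3, a mast cell carboxypeptidase that early myeloid progenitors also express, was at 115, 41.2 and 551 CPM, a ratio of 2.26 to the control that was 3.97 with equal weight per member. The 12 macrophage genes held 0.0033%, 0.00106% and 0.00437%, with 4, 4 and 0 at 0 and none at the level tested. The part of these markers in the ratios of other genes was not tested beyond leaving out the members that carried them. The 12 dendritic genes held 0.0325%, 0.0353% and 0.0433%, with 4, 4 and 0 at 0. Their median was 1.86 over 6 tested, and 0.80 without members carrying other cell types' markers. Dendritic genes are among those markers, so a lower median follows by construction. The 10 plasma and B cell genes held 0.00939%, 0.0096% and 0.0322%, most of it from Xbp1, which secretory cells of many kinds express, and from the light chain gene Igkc at 13.7, 16.4 and 151 CPM. Of these 10 genes 6, 4 and 0 were at 0.

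An Igkc UMI was found in 52.3% of thinned Mll4-labelled members and in 64.8% of that library's HSC gate. Whether these UMIs came from the cells themselves was not tested. The erythroid and megakaryocyte list held 0.00891%, 0.0122% and 0.0203%, with haemoglobin Hba-a1 at 0, 0 and 91.2 CPM, and with 2, 2 and 1 of its 12 genes at 0. The lymphoid list held 0.0147%, 0.0306% and 0.0174%, with 8 of 16 genes at 0 in the control members and none at 0 in the others. The stromal and endothelial list, which holds Apoe, made up 0.0217%, 0.0172% and 0.00646%, with 4, 5 and 0 of its 10 genes at 0. The innate lymphoid and T list held 0.0537%, 0.0427% and 0.013%, nearly all from Nkg7, with 7, 5 and 2 of its 12 genes at 0. The T cell gene Cd3e was at 0 in all 3.

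Surface antibodies, which the rule did not use, placed the members in 1 gate. The CD150- CD48+ CD135- gate, known as MPP3 and enriched for myeloid potential, held 79 of 85 members (92.9%, exact interval 85.3 to 97.4) in the control, 83 of 96 (86.5%, 78.0 to 92.6) in the Mll3-labelled and 963 of 1037 (92.9%, 91.1 to 94.4) in the Mll4-labelled library. Among barcodes that were not members, 43.8%, 21.2% and 63.4% were in this gate. Members made up 2.45%, 6.11% and 28.8% of the gate. The HSC gate held 0, 1 and 0 members, which allows 4.25% of control and 0.355% of Mll4-labelled members at most by the exact interval. The higher share of members in the Mll4-labelled library was thus also seen within the gate.

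Antibody levels are centred log ratios (natural log) within a barcode over the 6 antibodies, so 1 high antibody lowers the others. CD48, an adhesion protein gained by proliferating progenitors, had medians of 3.41, 3.26 and 3.37 in members and 2.10, 0.745 and 2.95 in the other barcodes. CD150, a stem cell antigen, was at -1.80, -1.59 and -1.61 in members and -1.33, -0.241 and -1.30 in others. CD34 was at 0.633, 1.24 and 0.430 in members and at 0.772, 0.833 and -0.275 in others. CD48 was thus nearly level across the members of the 3 libraries, whereas CD34 ranged more widely and was lowest in the Mll4-labelled ones.

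CD117, the Kit protein, had medians of 1.18, 1.07 and 0.694 in members, although Kit RNA was highest in the Mll4-labelled members. As counts per 1000 antibody counts, CD117 was at 95.6, 92.9 and 61.9 in members and at 168, 278 and 77.7 in others. CD201, the protein C receptor of stem cells, was at -1.79, -2.15 and -1.26, and 5.88%, 3.12% and 29.3% of members were over its threshold, against 39.9%, 31.6% and 62.4% of other barcodes. Its gene Procr was at 2.02, 6.57 and 1.18 CPM. CD135, the Flt3 protein, was at -1.52, -1.78 and -1.61. The Sca1 gene Ly6a, an antigen of the sort, was counted at 6.05, 13.5 and 13.7 CPM in members and at 95.3, 136 and 185 in the other barcodes, so members held little of it in each library.

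**Figure D5:**
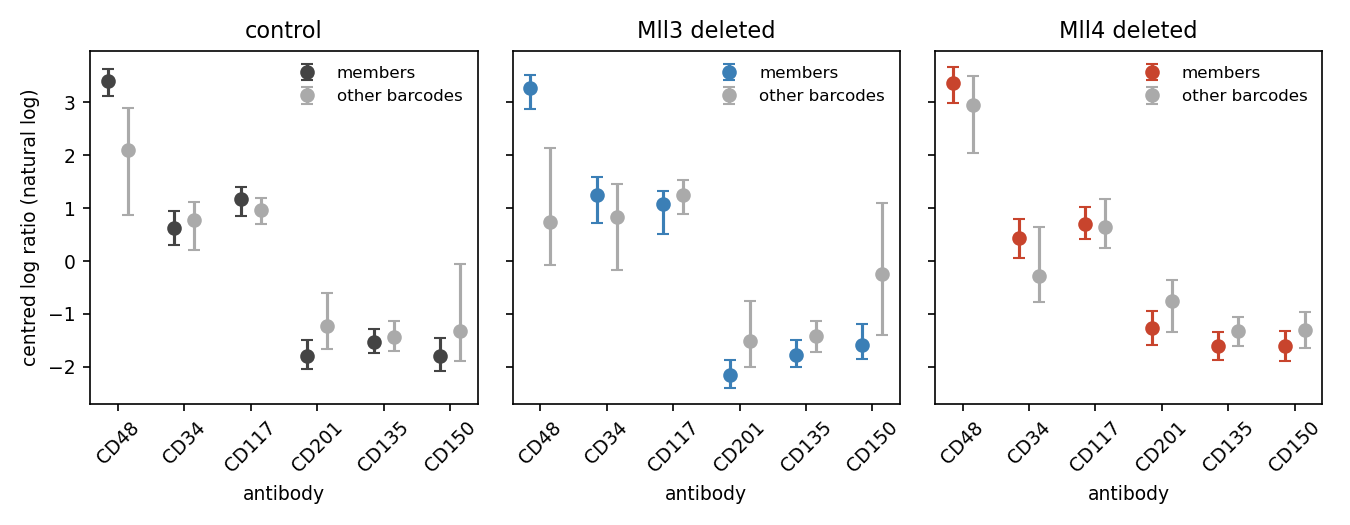
Median centred log ratio (natural log) of 6 antibodies in members and in the other barcodes of the 3 libraries with more than 1 member. Bars run from the lower to the upper quartile over barcodes. Members have the highest CD48, between 3.26 and 3.41, and lower CD150 than the other barcodes in all 3 libraries.

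Mll3-labelled and control members were close. Of 5566 genes, 0.503% were higher and 0.431% lower by at least 2-fold, with a median log2 ratio of 0.13 that TMM scaling moved by -0.14. After that scaling 15 genes were higher and 48 lower in place of 28 and 24, so the share of calls that were higher went from 53.8% to 23.8%. None of the granule, transcription factor or receptor genes passed 2-fold. In the neutrophil list 1 of 10 was higher and 4 lower. The lower ones were S100a8 at 468 and 124 CPM, S100a9 at 643 and 222, Chil3 at 44.7 and 16.8 and Wfdc21 at 37.1 and 14.6. The higher one was Camp, which the rule limits, at 21 and 73. An S100a8 UMI was found in only 10.7% and 5.21% of thinned members, and in 22.4% and 11.5% of unthinned ones. The neutrophil list held 0.169% and 0.0819% of summed UMIs, but its median share per member was close, at 0.0332% and 0.0256%. Camp was at 153 and 534 CPM in the top protease band and at 10.9 and 0.574 in the middle one. These list counts thus describe the sums and not the typical member. Of the immediate early genes 4 of 8 were higher and none lower. Past 2-fold in the other lists were Lgals3, a galectin of macrophages, at 16.1 and 51.1 CPM, the carbonic anhydrase Car2 at 44.7 and 101, Cpa3 at 115 and 41.2 and Kmt2c itself at 40.3 and 19.7. Lgals3 was at 5.12 and 121 CPM in the lowest protease band and at 24.5 and 35.6 in the middle one. Early B cell genes were found in the Mll3-labelled members, with Ebf1 at 17.9 CPM and Cd79a at 16.1 and no UMI of either in the control members.

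The single member of the Mll3/4-labelled library had 51982 UMIs, 6694 genes and 1.97% of UMIs from the 3 proteases. It held 504 UMIs of Mpo, 491 of Elane, 333 of Prtn3, 202 of Ctsg and 39 of Ms4a3, so all 5 defining genes were present. It had 50 UMIs of F13a1, 31 of Ms4a6c, 21 of Itga1 and 119 of Slpi, but 1 of Lgals1 and none of Nkg7, Hoxa9, Tspan32 or Cd81. A gene of low level, such as Hoxa9, can lack UMIs from this depth alone. Of the 15 genes highest in Mll4-labelled members, this member had no UMI of Cma1, Tpsb2, Mcpt4, Snhg9, Cd74 or Dennd5b. Its barcode was not found in the other 3 libraries. Lymphoid genes made up 0.0673% of its UMIs against a median of 1.89% in the other barcodes of that library. In that library 99.4% of the other barcodes had no UMI of the 3 proteases. A single barcode gives no spread, and these counts are listed without a ratio.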

How the data were processed

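The deposited files held raw UMI counts and antibody tag counts per barcode, made by the authors with Cell Ranger 6.1.1 on mm10, per the submitters' processing notes. The filter that chose the deposited barcodes is not given in the sources used here. Each file covered 32285 genes and 6 antibodies, and 99.6% of gene identifiers were found in GENCODE M21. Each library's genotype came from its title. The members, the gene lists and their markers were chosen with earlier results of these data known.

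UMIs were summed over the members of a library and divided by their total (CPM). Log2 ratios were taken after adding 0.5 UMIs. Intervals are exact Poisson for levels, exact conditional binomial for ratios and Clopper-Pearson for shares, at 95%. A gene was called at 2-fold with a mean of at least 20 CPM. Named genes are those of 25 lists and the 15 highest and 15 lowest Mll4-labelled to control ratios at 50 CPM or more in either library that were past 2-fold to Mll3 in the same direction. Mitochondrial, ribosomal protein, haemoglobin, immunoglobulin, T-cell receptor, sex-linked and unnamed genes and the 6 genes of the rule were left out of those 30. Lists of H3K4 methyltransferases and of the 6 antibodies' target mRNAs were also counted: 0 of 9 and 0 of 3 genes tested passed 2-fold to the control. Medians are given for lists with at least 5 genes tested. The result of 1 listed gene is not reported here.

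Antibody gates used 1 threshold per antibody, the crossing of a Gaussian mixture (scikit-learn 1.9.0). Scrublet (scanpy 1.11.5) called 3, 3, 171 and 1 doublets at its own threshold, too few to have worked in 3 libraries, so doublets were kept and the highest scores, 0.8% per 1000 barcodes, removed as an alternative. Scaling alternatives used edgeR 4.0.16 and DESeq2 1.42.0 in R 4.3.3. Ratios were checked on simulated counts.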

Additional observations from a re-analysis of the deposited data

Results flagged for a closer look

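For 6 genes the Mll4-labelled to control ratio had opposite signs in members and in the remaining barcodes, by at least 2-fold each way. With 1 library per genotype the difference between the ratios was not tested. Trem3 had a log2 ratio of -3.07 in members and 2.35 in the others, and Ccl9 -2.83 and 1.89. Cebpb had -1.24 and 1.54, and Cebpe -1.17 and 2.17. Fcer1g had -1.05 and 3.22, and S100a9 -1.16 and 3.60. In members the S100a9 ratio was -0.19 with the protease bands weighted as in the control. The Fcer1g ratio in members was 0.01 with equal weight per member and -1.53 without members carrying other cell types' markers. All 6 were also higher among non-members of the CD150- CD48+ CD135- gate, at 2.62, 1.76, 1.92, 2.44, 3.46 and 3.93 in that order. The barcodes outside the members differ in makeup, with 606 of the Mll4-labelled ones over 0.5% mast cell genes against 2 in the control.

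In barcodes that failed the gene or mitochondrial limits, which no ratio above uses, 45.1% of the Mll4-labelled ones were over the protease limit of the rule, against 4.17% in the control and 3.49% in the Mll3-labelled library. Most of the failing Mll4-labelled barcodes, 2634 of 2909, had fewer than 1000 genes, against 228 of 408 in the control and 224 of 459 in the Mll3-labelled library. Over the mitochondrial limit were 358 in the control, 396 in the Mll3-labelled and 473 in the Mll4-labelled library. Median depths of the failing barcodes were 1958, 2377 and 672 UMIs in that order, so few protease UMIs reach the limit in the Mll4-labelled ones.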

How the results depend on the processing

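No paired analysis was possible because each genotype had 1 library, and for the same reason none could be left out in turn. The share of members was 1.83%, 2.29% and 21% at 2000 genes and 5% mitochondrial UMIs, and 23% in the Mll4-labelled library at 500 genes and 20%. It was 1.76%, 2.2% and 27.2% with a protease threshold of 0.25%, and 0.77%, 1.2% and 14.8% with 1%. In alternatives added after seeing the data the Mll4-labelled share was 19.5% without members under 10000 UMIs and 17.2% without those over 0.2% other-type markers. The Mll4-labelled share was the highest in each of these.

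Under TMM 515 genes were higher and 131 lower in Mll4- than in Mll3-labelled members, with 156 lower under median-of-ratios. For Mll3-labelled to control members both gave 15 higher and 48 lower, and totals without mitochondrial, ribosomal protein and rule genes gave 51 lower. With a minimum of 5 CPM the counts were 457 higher and 407 lower (Mll4 to control), 543 and 680 (Mll4 to Mll3) and 171 and 108 (Mll3 to control). With 100 CPM they were 71 and 22, 154 and 80, and 4 and 4. Fewer genes are tested at the higher minimum by construction.

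The dendritic median was 0.50 (to control) and 0.64 (to Mll3) at 5 CPM, and 0.80 and 0.84 without other-type members, which dendritic genes helped to choose. The stem list to Mll3 was -0.77 at 5 CPM and -0.71 at the stricter cell filter. The immediate early list to Mll3 was -1.11 at 5 CPM, -1.08 at a threshold of 1% and -1.01 without other-type members, and the neutrophil list to control -1.38 without them. Without them Camp had -1.64 and Ngp -1.23 to control, and Ngp -0.44 to Mll3. Fcer1g had 0.01 with equal weight per cell. As counts per 1000, members minus others, CD117 was -72.6 in the control and -15.8 in the Mll4-labelled library and CD34 -76.5 in the Mll3-labelled one, opposite in sign to the centred log ratios. Of 132 gene results at or past 2-fold after rounding, 27 changed their call under at least 1 alternative. Xbp1 to Mll3 and Ung to the control, both just under 2-fold before rounding, are counted among these and gained the call. Except where given, the cause was not tested.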
